A study of Drosophila melanogaster with 48 samples.

Results

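The Cpr genes of Drosophila encode structural proteins of the cuticle that carry the Rebers and Riddiford consensus, a conserved stretch that binds chitin. The genes with a FlyBase symbol made of Cpr and a chromosome band number were taken, which leaves out the cytochrome P450 reductase gene that is called Cpr alone. Of the 14205 gene rows, 70 carried such a symbol, and the 47 with a count above 0 in 6 or more of the 48 libraries are described here. The other 23 rows stayed under that minimum.

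The insect cuticle is a composite of chitin fibres and proteins that the epidermis secretes, and it covers the body wall, the tracheae, the foregut, the hindgut and the cornea. Cuticular proteins differ by body region and stage. Most are made around each moult, when a new cuticle is laid down, and the adult epidermis goes on adding layers to the cuticle after eclosion. The symbol of a Cpr gene gives its cytogenetic band, so Cpr49Aa and Cpr49Ab are near each other in the genome, and many of the genes have no described role of their own beyond the family consensus.

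The study asked how dietary restriction changes the output of a peripheral circadian clock. Sequenced RNA came from abdominal fat body, which the labels describe as including oenocytes and epidermis, of young mated w1118 females (iso31 / Bloomington stock #5905) with no transgene named. Flies about 3 days old were kept for 5 days at 25 °C in 12 h of light and 12 h of dark, on a control diet of 15% sucrose and yeast or a restricted diet of 5%, and were sampled every 2 h, from zeitgeber time (ZT) 2 to ZT 24, where ZT 0 and 24 are lights-on. Each library pooled about 10 flies, and there were 2 libraries, numbered replicate 1 and 2, for each of the 12 times on each diet, so each diet had 24. The intestine, ovaries and Malpighian tubules were removed by dissection, per the labels' protocols, and the fat tissue was collected attached to the epidermis, the tissue that makes cuticle.

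The libraries held between 5815474 and 33485927 estimated counts, with a median of 11728544.5. The replicate series differed in more than depth. The mitochondrial share of counts had a median of 5.02% in the 24 replicate 1 libraries and 2.40% in the 24 replicate 2 libraries, and ribosomal RNA reached 53.8% of the counts of the restricted ZT 2 library of replicate 1. The fat body markers summed to between 50979.5 and 178707 TPM (a level per transcript length, scaled to the library) in every library, and transcripts of photoreceptors were high in 2 libraries, control ZT 10 of replicate 1 and restricted ZT 14 of replicate 1, beside a few Cpr genes described last. In pooled tissue, fewer cells of a type and less RNA per cell cannot be told apart.

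Cpr transcripts were dominated by 1 gene. Cpr49Ab stood at a mean of 1280 TPM over the 48 libraries, rank 142 of 14205 genes, and alone made up 77.0% ± 4.04 (SD, n = 48) of the summed TPM of the 47 genes, between 63.6% and 83.6% in single libraries. Cpr65Au followed with a mean of 155 TPM and rank 736, which is 0.121 times the level of Cpr49Ab. Below them 5 genes had means between 10 and 100 TPM, 7 between 1 and 10, 17 between 0.1 and 1, and 16 under 0.1 TPM. The summed TPM of the 47 genes was 1528 ± 338 (SD, n = 24) on the control diet and 1786 ± 390 (SD, n = 24) on the restricted diet, and without Cpr49Ab the sums were 352 ± 87.5 and 403 ± 104.

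The 47 genes lay on all the large chromosome arms in the BDGP6 annotation, with 21 of the family's 35 rows on 3L, 17 of 21 on 2R, 5 of 5 on 3R, 3 of 5 on 2L and 1 of 4 on X. Their longest proteins ranged from 93 residues (Cpr60D) to 1231 (Cpr76Bd), with a median of 190, 26 genes had 2 coding exons, and 25 had another Cpr gene as the nearest protein-coding neighbour on at least 1 side. Neighbours could differ widely in level. Cpr49Ab lies next to Cpr49Aa, which had a mean of 0.644 TPM, so that the ratio of the means was 1988. Cpr49Ae, at 69.3 TPM, lies next to Cpr49Af, at 0.0506 TPM and detected in 7 libraries, and Cpr97Eb, at 10.5 TPM, lies next to Cpr97Ea, at 0.0865 TPM. The Cpr62B cluster was graded, with 4.44 TPM for Cpr62Bb, 0.802 for Cpr62Bc and 0.122 for Cpr62Ba. These neighbours were picked out after their values were seen.

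Cpr49Ab ranged from 686 to 1592 TPM on the control diet, with a median of 1144, and from 746 to 1776 TPM on the restricted diet, with a median of 1502. The diets overlapped over nearly the whole range, and the replicate series differed more. Control libraries of replicate 1 held 686 to 1118 TPM and those of replicate 2 held 1171 to 1592, and restricted libraries held 746 to 1647 in replicate 1 and 1421 to 1776 in replicate 2. In TPM the control series thus lay apart and the restricted series overlapped. In log2 CPM (counts scaled to library totals adjusted by edgeR's TMM factors) the reverse was found. On that scale the control series overlapped in all 24 of the tested Cpr genes, against 1.69% of all genes tested in which replicate 2 lay wholly above replicate 1, and on the restricted diet replicate 2 lay wholly above replicate 1 for 2 of the 24, Cpr49Ab and Cpr97Eb, against 3.2% of all genes tested. Replicate 2 lay wholly below replicate 1 for 0 of the 24 on either diet, against 1.12% of all genes tested on the control and 0.844% on the restricted diet.

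Cpr65Au, which lies in the 65A band beside the larval cuticle genes Lcp65Ag2 and Lcp65Ag3, ranged from 63.6 to 236 TPM on the control diet, with a median of 164, and from 74.8 to 362 TPM on the restricted diet, with a median of 135. Of its exonic bases, 93.3% are shared on the opposite strand with the antisense RNA asRNA:CR46005 in the BDGP6 annotation, and no strand setting is given in the sources used here, so reads of both cannot be told apart. Cpr49Ae ranged from 17.6 to 163 TPM on the control diet, with a median of 47.3, and from 26.8 to 171 on the restricted diet, with a median of 65.6. On the control diet its SD was 39.6 TPM beside a mean of 61.3, whereas that of Cpr65Au was 54.5 beside a mean of 156. Neighbouring places in the order of levels were not always distinct. The means of Cpr49Ae and Cpr67B, 69.3 and 61.6 TPM, and those of Cpr47Ea and Cpr73D, 2.79 and 2.65 TPM, differed by less than the SD of the control libraries, while Cpr49Ab and Cpr65Au did not overlap in range with each other.

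**Figure D1:**
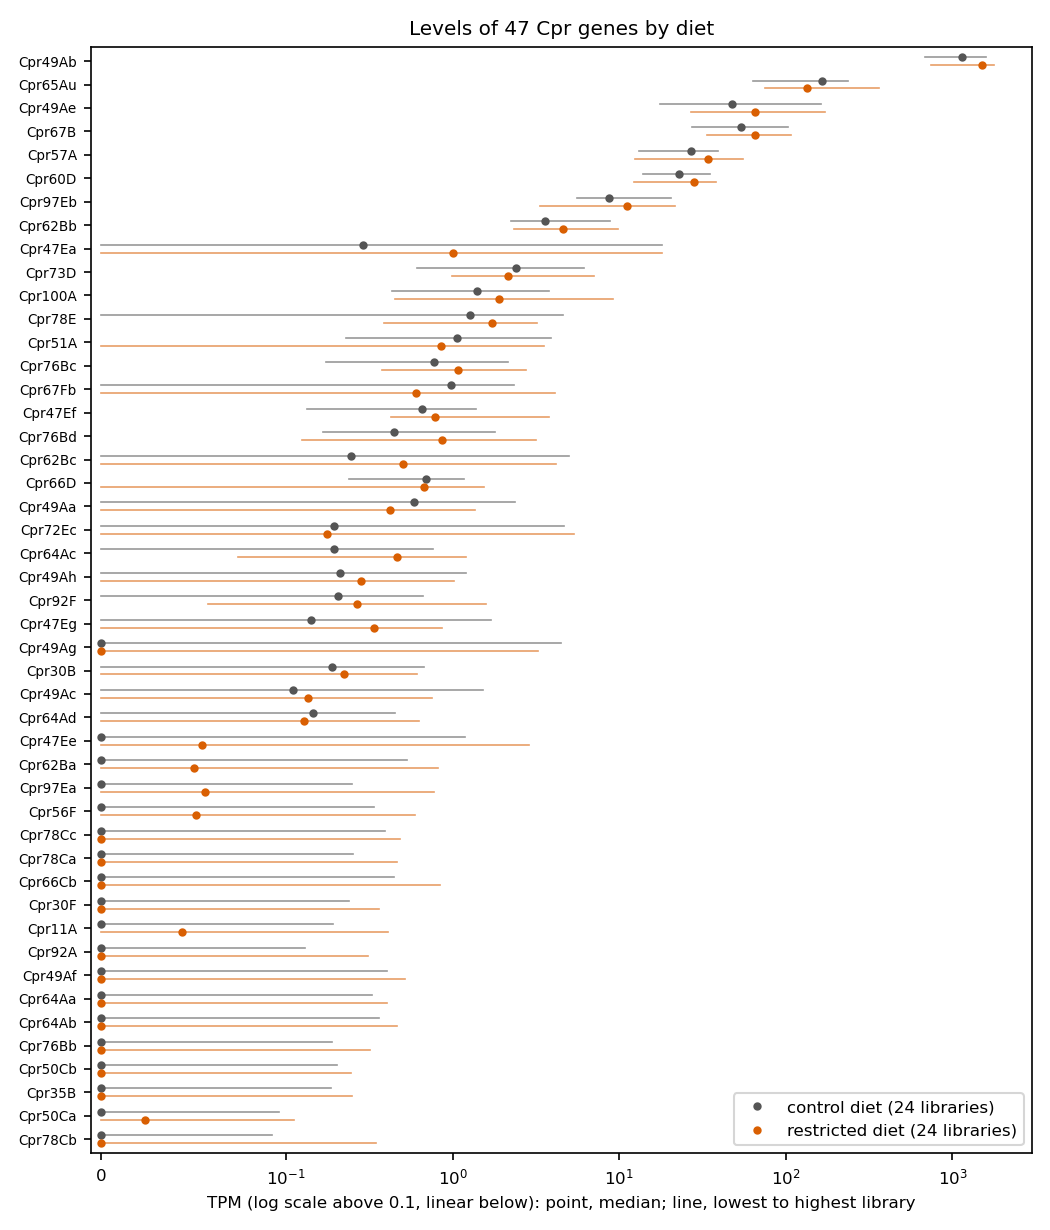
Levels of the 47 Cpr genes in TPM on the control and the restricted diet (x axis, logarithmic above 0.1 and linear below; points, medians of 24 libraries; lines, lowest to highest library), ordered by mean level. Cpr49Ab, with a mean of 1280 TPM, stands apart from the others, and 33 genes have means under 1 TPM.

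The restricted diet was compared with the control diet at matched times for the genes that passed a filter on low counts, 24 of the 47. Of these, 10 rose on the restricted diet and 0 fell, by edgeR's quasi-likelihood test with Benjamini-Hochberg adjusted p under 0.05 over 10070 genes, where 10.4% of all genes tested rose and 15.4% fell. At an unadjusted p under 0.05 there were 12 of 24, 0 of them lower, against 39.5% of all genes tested in either direction, and DESeq2 called 10 higher and 0 lower. The median log2 change of the 24 was 0.49, beside 0.01 over all genes tested. Of the 24, 20 were above 0, beside 5193 of the 10070 genes tested. A gene could pass the filter through libraries of 1 diet, so these counts describe the 24 genes and not the family.

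The difference was wider in replicate 2 than in replicate 1. Within replicate 2 the median log2 change of the 24 genes was 0.57 and within replicate 1 it was 0.23. Fitted on the replicate 2 libraries alone, 12 of the 24 were called, all higher, in a fit that called 2100 of the 10070 genes higher and 2210 lower. On the replicate 1 libraries alone 0 of the 24 were called, in a fit that called 1 gene higher and 1 lower. All 10 called genes had a positive difference in both series. It was between 0.06 and 0.85 in replicate 1 and between 0.55 and 1.89 in replicate 2. The 10 were called by a test over both series, so their signs within the series are not a separate reading. Of the 14 tested genes without a call, 9 had a positive difference in replicate 1 and 9 in replicate 2. Leaving out the restricted ZT 2 library of replicate 2 lowered the count of called Cpr genes from 10 to 6, while the higher calls over all genes went from 1048 to 731.

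Among the genes with more than 10 TPM, Cpr67B, Cpr57A, Cpr60D and Cpr97Eb rose. Cpr67B ranged from 27.4 to 103 TPM on the control diet, with a median of 53.7, and from 33.5 to 108 on the restricted diet, with a median of 65.1. Its log2 change was 0.50 ± 0.14 (SE, n = 24 per diet, by edgeR, adjusted p = 0.0139). The mean log2 CPM of the restricted pair was the higher at 12 of 12 times. The SE takes the 24 libraries of a diet as independent. Within the series the difference in mean log2 CPM was 0.06 in replicate 1 and 0.88 in replicate 2. Cpr60D, which encodes the shortest protein of the 47, ranged from 13.9 to 35.0 TPM with a median of 22.9 on the control diet and from 12.2 to 37.8 with a median of 28.2 on the restricted diet. It changed by 0.41 ± 0.12 on the log2 scale (by edgeR, adjusted p = 0.0172), with the restricted pair higher at 10 times. For both genes the ranges of the diets overlapped. The lowest restricted value of both was that of ZT 2 of replicate 1, the library with 53.8% ribosomal RNA, and the next lowest were 41.5 TPM for Cpr67B and 19.1 TPM for Cpr60D.

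Cpr57A ranged from 13.2 to 39.0 TPM with a median of 27.1 on the control diet and from 12.5 to 55.6 with a median of 34.2 on the restricted diet, which gave a log2 change of 0.53 ± 0.18 (SE, by edgeR, adjusted p = 0.0316). All of its 1488 exonic bases also lie in exons of the odorant-binding protein gene Obp57d on the same strand in the BDGP6 annotation, so the division of reads between both is uncertain. Obp57d had a mean of 0.998 CPM and a log2 change of 0.62 ± 0.21. The diet call of Cpr57A was lost without any 1 of 6 single libraries, control ZT 4 of replicate 1 and restricted ZT 2, 4, 8, 14 and 24 of replicate 2, with adjusted p up to 0.0665. Cpr97Eb ranged from 5.61 to 20.5 TPM with a median of 8.70 on the control diet and from 3.36 to 21.7 with a median of 11.1 on the restricted diet, where the lowest library was again ZT 2 of replicate 1 and the next lowest held 6.25 TPM. This gave a log2 change of 0.52 ± 0.17 (SE, by edgeR, adjusted p = 0.0256). Without the restricted ZT 2 library of replicate 2 its adjusted p was 0.0543.

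The remaining 6 called genes had means under 5 TPM. Cpr76Bd, which encodes the longest protein of the 47, had the smallest adjusted p. It ranged from 0.168 to 1.81 TPM with a median of 0.447 on the control diet and from 0.125 to 3.15 with a median of 0.862 on the restricted diet. Its log2 change was 1.18 ± 0.27 (SE, by edgeR, adjusted p = 0.00471), with the restricted pair higher at 12 of 12 times. Its neighbour Cpr76Bc ranged from 0.174 to 2.15 TPM with a median of 0.769 on the control diet and from 0.376 to 2.75 with a median of 1.07 on the restricted diet, a change of 0.70 ± 0.21 (by edgeR, adjusted p = 0.0164).

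Cpr62Bb ranged from 2.23 to 8.84 TPM with a median of 3.59 on the control diet and from 2.33 to 9.83 with a median of 4.63 on the restricted diet. The change was 0.48 ± 0.15 on the log2 scale (by edgeR, adjusted p = 0.0250), with the restricted pair higher at 12 of 12 times. Cpr100A ranged from 0.433 to 3.78 TPM with a median of 1.41 on the control diet and from 0.449 to 9.16 with a median of 1.90 on the restricted diet, and changed by 0.86 ± 0.28 (by edgeR, adjusted p = 0.0266). The median of its 12 restricted replicate 2 libraries, 3.09 TPM, lay above the medians of the other 3 sets, 1.30, 1.56 and 1.33 TPM. Its adjusted p was 0.0514 without the restricted ZT 2 library of replicate 2 and 0.0565 without the ZT 8 library.

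Cpr47Ef ranged from 0.133 to 1.38 TPM with a median of 0.657 on the control diet and from 0.430 to 3.77 with a median of 0.789 on the restricted diet, a change of 0.85 ± 0.25 (SE, by edgeR, adjusted p = 0.0165). Unlike the other called genes apart from Cpr76Bc, it had a higher difference within replicate 1, 0.85, than within replicate 2, 0.63, and its call was lost in either series alone. Cpr47Ea was the most uneven of the 10. It ranged from 0 to 18.1 TPM with a median of 0.288 on the control diet and from 0 to 17.9 with a median of 1.01 on the restricted diet, and its change of 1.81 ± 0.67 (by edgeR, adjusted p = 0.0429) was no longer called when any of 24 of the 48 libraries was left out, with adjusted p up to 0.102. In the BDGP6 annotation 19.7% of its exonic bases are shared on the opposite strand with the odorant receptor gene Or47a.

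Of the restricted and control pairs compared at each time, 10 or more of 12 were higher on the restricted diet for 10 of the 24 Cpr genes, against 15.9% of all genes tested. The highest genes were not among those called in this fit, which had no replicate term. Cpr49Ab changed by 0.35 ± 0.16 (SE, by edgeR, adjusted p = 0.0917) with the restricted pair higher at 10 times, and without the restricted ZT 20 library of replicate 1 its adjusted p was 0.0475. Cpr49Ae changed by 0.52 ± 0.27 (by edgeR, adjusted p = 0.148) and Cpr78E by 0.44 ± 0.27 (by edgeR, adjusted p = 0.225). With a replicate block in the fit, Cpr49Ab changed by 0.35 (by edgeR, adjusted p = 0.00397) and Cpr49Ae by 0.50 (by edgeR, adjusted p = 0.0164). Both were thus called, in a fit that called 1611 of all genes higher in place of 1048. The other tested genes without a call had log2 changes between -0.36 and 1.37, with Cpr97Ea, at 0.119 CPM, at the upper end.

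Cpr65Au went opposite ways in the replicate series. Its 12 libraries of each kind had medians of 118 TPM (control) and 150 TPM (restricted) in replicate 1 and of 180 and 122 TPM in replicate 2. The difference of mean log2 CPM, restricted minus control, was 0.53 in replicate 1 and -0.35 in replicate 2, and over all libraries the change was 0.04 ± 0.16 (SE, by edgeR, adjusted p = 0.874). The test of the difference between the series, which passed for 1 of the 24 Cpr genes, against 9.46% of all genes tested (5 at an unadjusted p under 0.05, against 27.2%), gave -0.85 ± 0.29 (by edgeR, adjusted p = 0.0592) for Cpr65Au. The gene that passed was Cpr67B.

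**Figure D2:**
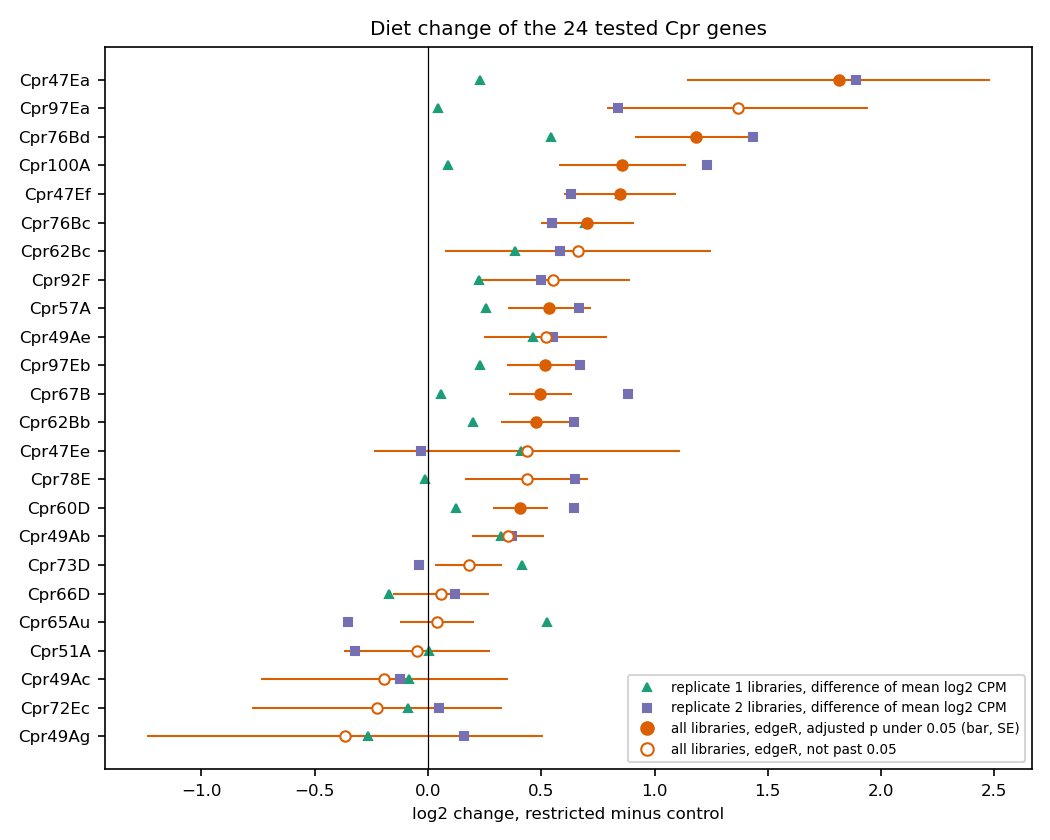
Log2 change, restricted minus control, of the 24 tested Cpr genes (x axis; circles, edgeR fit over all libraries with SE bars, filled where the adjusted p was under 0.05; triangles and squares, differences of mean log2 CPM within replicate 1 and replicate 2). The 10 filled circles are all to the right of 0, and in 8 of these genes the replicate 2 difference exceeds the replicate 1 difference.

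The 23 genes with too few counts for the test had between 8 and 157 counts over all libraries, 1140 in sum. The highest of them was Cpr67Fb, with a mean of 0.965 TPM. Of the 23, 17 were detected in more restricted than control libraries, 5 in more control libraries and 1 in equally many, with a median depth of 12227249.5 counts on the restricted and 10815079.5 on the control diet. The share of other low-count genes detected in more restricted libraries is not given, so a preference for 1 diet cannot be read from this count. At this depth a difference between the diets in these genes was not tested.

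Cell type markers shifted between the diets too. Of 15 tested epidermis markers 7 showed higher levels and 0 lower under restriction, with a median log2 change of 0.30, among them Gasp (a chitin-binding protein, 0.48 ± 0.11), Ddc (dopa decarboxylase of the tanning pathway, 0.35 ± 0.08) and the transcription factor gene grh (0.30 ± 0.07). The summed level of the 15 epidermis markers found ranged from 71.8 to 121 TPM on the control diet, with a median of 96.5, and from 73.5 to 139 on the restricted diet, with a median of 112. Of 5 tracheal markers 4 were higher, with a median of 0.44, and their sum ranged from 16.5 to 45.1 TPM and from 23.7 to 68.1. Gasp, serp and verm stand in both the tracheal and the epidermis list, so these lists are not separate readings. Of 12 muscle markers 6 were higher and 0 lower, and of 8 oenocyte markers 5 were higher and 0 lower. Of 8 hemocyte and of 8 neuron markers 3 were higher and 0 lower, of 10 fat body and of 23 gut markers 1 was higher and 1 lower, and of 6 Malpighian tubule markers 0 were called.

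Ovary markers moved the other way. Of the 23 tested, 14 were lower and 0 higher, with a median log2 change of -1.19, and their sum ranged from 321 to 16181 TPM on the control diet and from 8.42 to 7444 TPM on the restricted diet. The median changes of the ovary list within the series were -0.81 in replicate 1 and -2.85 in replicate 2. Of these lists no marker was at 0 in all libraries. In a fit with the ovary and gut marker levels as covariates 0 of the 24 Cpr genes were called and their median log2 change was 0.0024, while over all 10070 genes 18 were called higher and 1 lower. With the epidermis marker level as the covariate, a fit chosen after seeing the data, 0 of the 24 were called, with a median of -0.04, and 3 genes were called higher and 1 lower over all.

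The genes that make and modify the rest of the cuticle were read from lists chosen with earlier results known. Of 30 tested genes of chitin synthesis and modification 11 showed higher levels and 2 lower under restriction. Over the 30, log2 changes ran from -0.53 to 0.92 with a median of 0.24, and the genes named next are among those that rose. The chitin deacetylase gene Cda5 changed by 0.52 ± 0.09 (by edgeR, adjusted p = 0.00111), the chitin synthase gene kkv by 0.60 ± 0.23 (by edgeR, adjusted p = 0.0481) and exp, which chitin deposition needs, by 0.92 ± 0.25 (by edgeR, adjusted p = 0.0113). Of 16 genes of tanning and pigment 5 were higher and 0 lower, with a median of 0.23, led by Ddc and by ebony (e, 0.88 ± 0.25), whose enzyme joins beta-alanine to dopamine. Of 14 other structural genes of the cuticle 2 were higher, Gasp and obst-E, and 0 lower.

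The related families gave no calls. Of the 28 genes with the same consensus under other names 5 could be tested, with a median log2 change of 0.56, 0 higher and 0 lower, and the 28 summed to between 5.28 and 67.9 TPM, far under the sum of the Cpr genes. The adult cuticle gene Acp65Aa changed by 0.56 ± 0.41 (by edgeR, adjusted p = 0.307). Of the 26 Tweedle genes, a second family of cuticular proteins, 2 could be tested, 0 were called, and 10 were at 0 in all libraries. Several genes stand in more than 1 of these lists, such as Gasp, Ddc and kkv.

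For time of day, a 24 h cosine was fitted to each diet in a joint model. On the control diet 0 of the 24 tested Cpr genes passed edgeR's quasi-likelihood test, against 1.34% of all genes tested, with 6 at an unadjusted p under 0.05 against 11% and 1 called by DESeq2. On the restricted diet 1 passed, against 1.15%, with 3 at an unadjusted p under 0.05 against 8.91%. Over both diets 1 passed, against 4.47%, with 7 at an unadjusted p under 0.05 against 18.2%. The rhythms of the diets differed for 0 of the 24, against 0.0199%, with 1 at an unadjusted p under 0.05 against 3.03% and 0 called by DESeq2. The gene called on the restricted diet and over both diets was Cpr73D.

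Cpr73D encodes a protein of 597 residues and had a mean of 2.65 TPM, rank 10 among the 47. On the control diet its pair of libraries held 5.62 and 6.14 TPM at ZT 22 and 3.08 and 4.04 at ZT 24, and 0.609 and 1.04 at ZT 16. On the restricted diet it held 4.77 and 7.02 TPM at ZT 24, 3.94 and 4.60 at ZT 22, and 0.995 and 1.61 at ZT 16. Levels were thus high around the end of the night on both diets and low around the start of the dark phase. The 6 restricted libraries of ZT 22, 24 and 2 held 1.96 to 7.02 TPM, with a median of 4.36, all above the 6 libraries of ZT 10, 12 and 14, with 1.06 to 1.91 TPM and a median of 1.45. On the control diet the same sets held 2.35 to 6.14 TPM, with a median of 3.67, and 1.28 to 2.60 TPM, with a median of 1.85, and overlapped. These windows were chosen after the values were seen.

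The fitted amplitude of Cpr73D in log2 CPM was 0.87 ± 0.16 (SE) on the restricted diet and a peak at ZT 0.78 ± 0.72 h (by edgeR, adjusted p = 0.00118). On the control diet it was 0.58 ± 0.16 with a peak at ZT 0.11 ± 1.06 h (by edgeR, adjusted p = 0.0703), and without the restricted ZT 20 library of replicate 2 the adjusted p of the control rhythm was 0.0498. Over both diets the amplitude was 0.72 ± 0.12 with a peak at ZT 0.51 ± 0.61 h (by edgeR, adjusted p = 3.1e-05). The test of a difference between the diets gave an unadjusted p of 0.358 and the amplitude of the difference was 0.33 log2 units. Within 1 series alone the restricted rhythm was not called, with adjusted p = 0.0661 in replicate 2 and 0.269 in replicate 1, while the amplitude of the count model stayed between 0.88 and 0.94. With time as a factor of 12 levels in place of the cosine, the adjusted p was 0.196.

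In the BDGP6 annotation, 294 bases of Cpr73D, 9.7% of its exonic bases, are shared on the opposite strand with Ogdh, the gene of a subunit of oxoglutarate dehydrogenase, which stood at 547 CPM against 5.96 CPM for Cpr73D. Reads of both cannot be told apart over these bases without strand. Ogdh had an amplitude of 0.20 ± 0.07 over both diets with a peak at ZT 1.78 (by edgeR, adjusted p = 0.109), and its part in the rhythm of Cpr73D was not tested. Among the tanning genes, ple, the gene of tyrosine hydroxylase, peaked at ZT 22.6 with an amplitude of 0.80 ± 0.15 over both diets (by edgeR, adjusted p = 0.00350), and 3 of the 16 tested tanning genes passed.

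The other 23 tested Cpr genes had amplitudes between 0.05 and 0.64 over both diets and adjusted p between 0.0547 and 0.994. Of their fitted peaks 16 fell in the dark phase, with SE between 1.19 h (Cpr67B) and 9.80 h (Cpr92F). The share of such peaks over all genes is not given, so a preference for the dark phase cannot be read from this count. Cpr49Ab had an amplitude of 0.05 ± 0.11, with medians of 1171 TPM in the light and 1120 in the dark on the control diet and of 1434 and 1574 on the restricted diet. Cpr67B had an amplitude of 0.30 ± 0.09 with a peak at ZT 21.1 (by edgeR, adjusted p = 0.126). Cpr65Au had an amplitude of 0.51 ± 0.15 on the control diet and a peak at ZT 11.1 (by edgeR, adjusted p = 0.273), and of 0.12 ± 0.15 on the restricted diet. The smallest p for a difference between the diets was that of Cpr49Ac, at 0.0281 before adjustment, a gene at 0.203 CPM that was detected in 36 libraries.

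**Figure D3:**
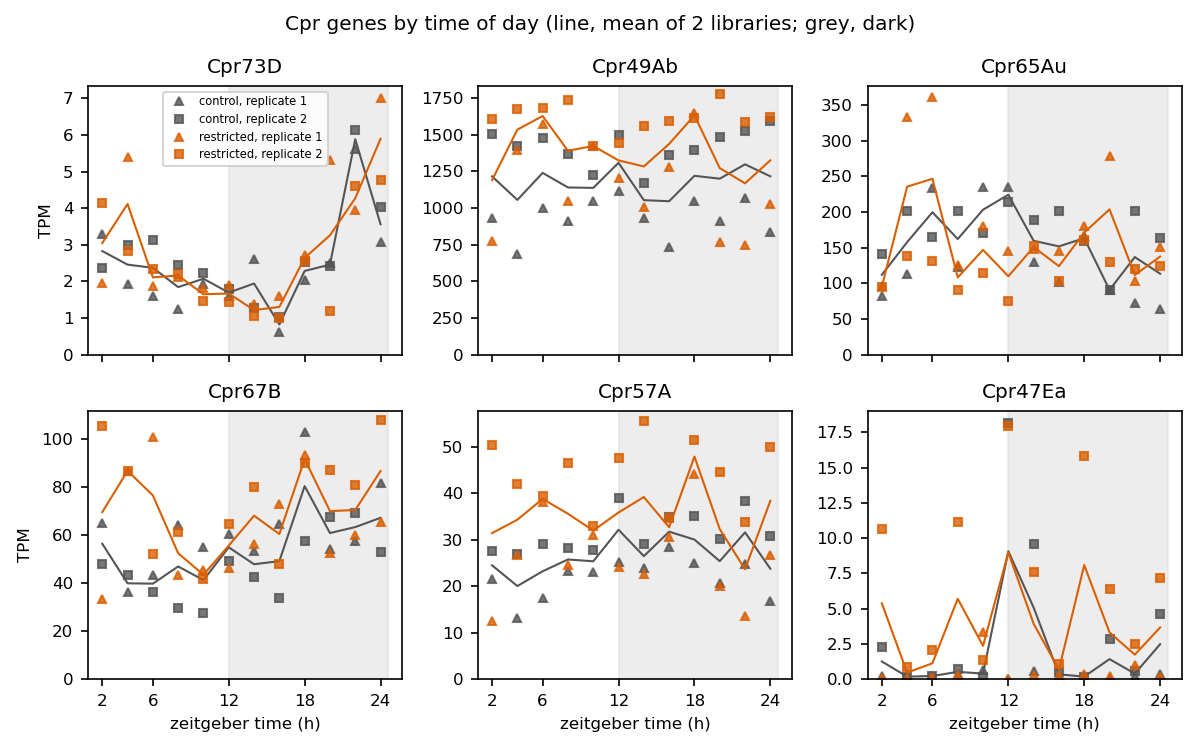
Levels of 6 Cpr genes in TPM (y axes) by zeitgeber time (x axes, h; grey, dark phase) in every library, by diet (grey and orange) and replicate (triangles, 1; squares, 2), with lines through the mean of the 2 libraries. Cpr73D is highest at ZT 22 and 24, whereas the highest values of Cpr47Ea are in replicate 2 libraries of both diets.

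Cpr47Ea differed widely between the replicate series. Its 12 control libraries of replicate 1 held 0 to 0.640 TPM, and those of replicate 2 held 0.139 to 18.1 TPM with a median of 0.623. On the restricted diet the replicate 1 libraries held 0 to 3.35 TPM and those of replicate 2 held 0.834 to 17.9 TPM with a median of 6.78, and 7 of these 12 held 6.42 TPM or more. The highest library was control ZT 12 of replicate 2, with 18.1 TPM, followed by restricted ZT 12 and ZT 18 of replicate 2, with 17.9 and 15.8 TPM. The partner libraries of replicate 1 at ZT 12 were at 0 on both diets.

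Other cuticle genes were high in some of the same libraries. Cpr62Bc, chosen after its values were seen, had its 4 highest values in control ZT 14 and ZT 12 and restricted ZT 12 and ZT 18 of replicate 2, with 5.02, 4.86, 4.20 and 3.02 TPM beside a median of 0.383. The adult cuticle gene Acp65Aa had its 4 highest values in these 4 libraries too, between 30.2 and 59.0 TPM beside a median of 7.60. Pcp, another gene with the same consensus, was not high there. It held between 0.781 and 2.87 TPM in these 4 libraries, beside a median of 2.05. Its highest value was 50.7 TPM, in control ZT 18 of replicate 1. Cpr49Ae, Cpr97Eb and Cpr76Bd had their highest value in the restricted ZT 12 library of replicate 2.

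Across libraries many of the Cpr genes varied together. Over the 91 pairs of the 14 genes with a mean of at least 1 CPM, Pearson's r of log2 CPM over the 48 libraries ran from -0.106 to 0.924 with a median of 0.531, and Spearman's rho had a median of 0.515. The libraries share diet, replicate series and time, and these correlations are given as a description. Within the 4 sets of 12 libraries of 1 diet and 1 series, the median r of the 91 pairs was 0.444 and 0.393 for control replicates 1 and 2 and 0.252 and 0.465 for restricted replicates 1 and 2. The median was thus lower inside each set, though above 0. Within the sets 73 to 82 of the 91 pairs were above 0, and single pairs reached as low as -0.477. No such median over pairs of all genes is given.

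The closest pair was Cpr49Ab and Cpr57A, with r = 0.924 over 48 libraries, a rho of 0.933, and r between 0.707 and 0.877 within the 4 sets. Cpr47Ea and Cpr62Bc had r = 0.862 over all libraries, 0.879 and 0.772 in replicate 2 of the control and restricted diets, and -0.243 and 0.578 in replicate 1. A set of 9 genes, Cpr49Ab, Cpr49Ae, Cpr57A, Cpr60D, Cpr62Bb, Cpr76Bd, Cpr97Eb, Cpr100A and Cpr47Ea, picked after the values were seen, had r between 0.503 and 0.924 with each other. Within the 4 sets of 12 libraries the median r among the 9 was 0.611 and 0.596 on the control diet (replicates 1 and 2) and 0.340 and 0.693 on the restricted diet, and single pairs reached as low as -0.229. Cpr73D, Cpr65Au and Cpr47Ef stood outside, with median r of 0.108, 0.198 and 0.202 with the other 13.

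The 14 genes also varied with marker levels, measured as the mean log2 CPM of a list. Over the 48 libraries the median r was 0.758 with the tracheal, 0.701 with the epidermis and 0.672 with the muscle markers, and -0.657 with the ovary markers. The tracheal and epidermis lists share Gasp, serp and verm. Within the 4 sets of 12 libraries the median r with the epidermis markers was between 0.385 and 0.688, with the tracheal markers between 0.259 and 0.733, and with the ovary markers between -0.662 and -0.137. The part of tissue makeup in the shared variation was not tested.

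**Figure D4:**
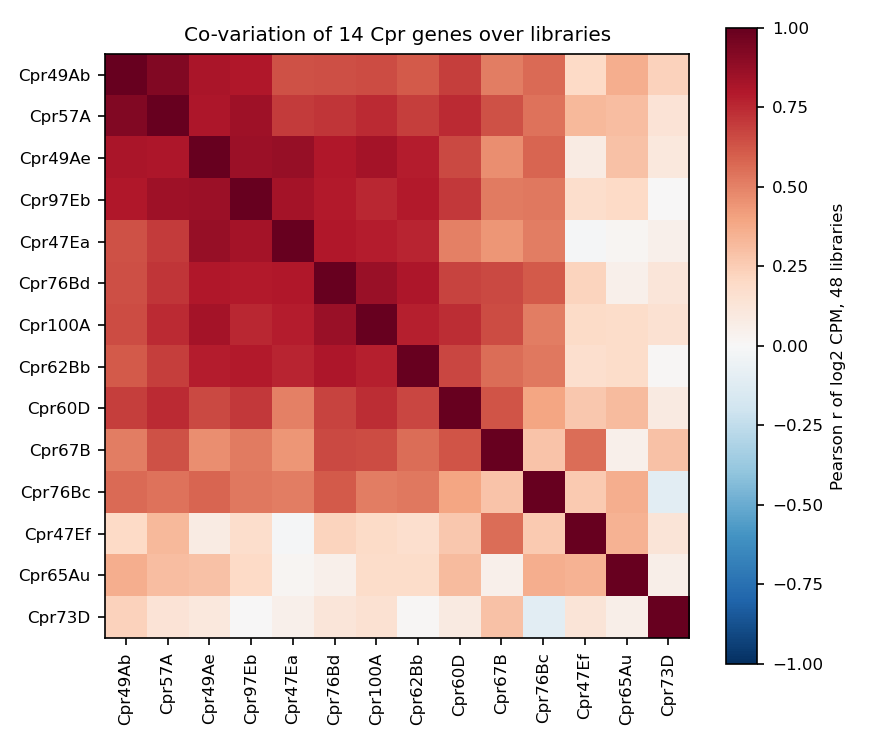
Pearson's r of log2 CPM over 48 libraries for each pair of the 14 Cpr genes with a mean of at least 1 CPM (colour scale from -1 to 1; both axes list the same genes). The 9 genes at the upper left have r of 0.503 or more with each other, while Cpr47Ef, Cpr65Au and Cpr73D are paler.

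The last group of Cpr genes was high in the 2 libraries with the most photoreceptor transcripts. The rhodopsin gene ninaE held 777 TPM in restricted ZT 14 of replicate 1 and 641 TPM in control ZT 10 of replicate 1, beside a median of 1.38 TPM over the 48 libraries, and the next highest library, restricted ZT 8 of replicate 2, held 55.4 TPM. The photoreceptor genes Rh3, ninaC and trp and the corneal lens gene retinin had their highest and next highest values in the same libraries. Crys, another gene of the corneal lens, was at 0 in both and reached at most 0.184 TPM, in control ZT 24 of replicate 1. Photoreceptor transcripts were not limited to these libraries, since ninaE was above 0 in 47 libraries and Rh3 in 33. In the 2 highest libraries for ninaE, Cpr72Ec, which encodes a protein of the corneal lens, held 5.38 and 4.63 TPM beside a median of 0.194. Cpr49Ag held 3.27 and 4.47 TPM, 68.4% of its TPM over all libraries, and was detected in 10 libraries, with its next highest value, 1.36 TPM, in restricted ZT 8 of replicate 2. Cpr47Ee held 2.895 and 1.19 TPM, 60.6% of its TPM.

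Cpr66D, also described in the corneal lens, was not high there. Its highest value was 1.55 TPM, in restricted ZT 20 of replicate 1, and it was detected in 47 libraries. Cpr72Ec, Cpr49Ag and Cpr47Ee were picked out after their values were seen. Cpr72Ec changed by -0.22 ± 0.55 with the diet (SE, by edgeR, adjusted p = 0.782). Without the 2 libraries, 11 of the 24 tested genes were called for diet, with a median log2 change of 0.55, the added gene being Cpr97Ea, while over all genes 1320 were called higher in place of 1048. Without these libraries Cpr73D was again the gene called for rhythm on the restricted diet and over both diets.

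**Figure D5:**
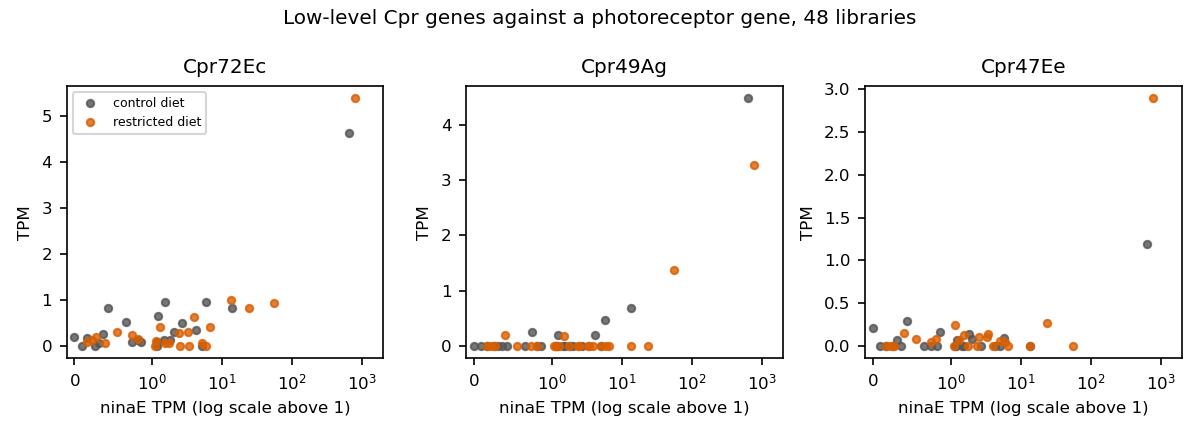
Levels of Cpr72Ec, Cpr49Ag and Cpr47Ee (y axes, TPM) against the rhodopsin gene ninaE (x axes, TPM, logarithmic above 1) in the 48 libraries, coloured by diet. The 2 libraries with 641 and 777 TPM of ninaE hold the highest values of all 3 Cpr genes.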

How the data were processed

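The authors deposited TPM values and estimated counts per gene for each of the 48 libraries. They were made with kallisto 0.44.0, and FastQC is also named, per the submitters' processing notes. Annotation, genome build and strand setting were not given in the sources used here. FlyBase gene IDs were matched to symbols for 14051 of 14205 rows. Chromosome arms, protein lengths, neighbours and shared exons come from the BDGP6 annotation, whose build may not be that of the authors, so no coordinates are given.

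The deposited estimated counts (88.2% whole within 0.01) were rounded. Genes passing filterByExpr (minimum count 10, groups of diet and time; 10070 genes) were scaled by TMM and tested with edgeR 4.0.16 (R 4.3.3), all libraries sharing 1 estimate of spread, with Benjamini-Hochberg adjustment over all genes and a threshold of 0.05. The diet fit had time as a factor and no replicate block, so its SE and p-values do not measure a spread between the replicate series. Rhythm fits had a cosine and sine of 24 h for each diet, and amplitudes and peaks with SE are from least squares on log2 CPM with a prior count of 2. The SE of a diet change is its size divided by the square root of F. A further fit added replicate and its interaction with diet. Alternatives were DESeq2 1.42.0, limma 3.58.1 on log2(TPM + 1), other scaling and filters, marker covariates and left-out libraries. Scripts were tested on simulated data.

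Library totals ranged from 5815474 to 33485927, and the counts behind genes under 1 TPM limit their precision. The libraries of a group are labelled as biological replicates. No pair of the same group agreed within sampling noise. The gene family and all lists were chosen with earlier results of these data known. Named with values are the 12 genes highest in TPM, those passing the diet, rhythm or diet by replicate test, and the smallest p for the rhythm difference, and genes named beyond this were chosen after their values were seen.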

Additional observations from a re-analysis of the deposited data

Results flagged for a closer look

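The diet effect on Cpr67B differed between the replicate series, by 0.85 ± 0.24 on the log2 scale (replicate 2 minus replicate 1, SE, edgeR adjusted p = 0.0214), where 9.46% of all genes tested passed the same test. In replicate 1 the 12 control libraries held 36.5 to 103 TPM with a median of 59.0, and the 12 restricted libraries 33.5 to 100.993 TPM with a median of 58.2, a difference of 0.06 in mean log2 CPM. In replicate 2 they held 27.4 to 69.1 TPM with a median of 45.6 and 41.5 to 108 TPM with a median of 80.3, a difference of 0.88. Mitochondrial shares of counts differed between the series too, as did the diet change of the ovary markers, and the part of either in this difference was not tested. Leaving out each library in turn kept the difference between 0.77 and 0.98, with adjusted p between 0.00406 and 0.0401.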

How the results depend on the processing

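Of 24 tested Cpr genes, 10 rose and 0 fell with the restricted diet. The count moved to 0 without replicate 2, to 0 with the ovary and gut marker levels as covariates, to 0 with the epidermis marker level and to 4 with limma on log2(TPM + 1), where the median change of all genes was -0.09 in place of 0.01 and 307 genes were higher and 1634 lower in place of 1048 and 1553. It was 12 without replicate 1 and 10 with DESeq2, where 2100 and 1267 of all genes were called higher. It was 13 with a replicate block, where 1611 of all genes were higher, and which added Cpr49Ab (adjusted p = 0.00397), Cpr49Ae (adjusted p = 0.0164) and Cpr97Ea. Across the diets the correlation of same-numbered deviations was between -0.163 and 0.465 over 12 times, with a median of 0.151 and 8 over 0.1. These values do not decide whether the replicate numbers pair the samples, and the labels give no batch. On the control diet the mitochondrial shares of the series lay apart, with 4.41% to 7.05% in replicate 1 and 2.09% to 2.55% in replicate 2. On the restricted diet they overlapped. Leaving out single libraries gave 6 to 11 genes, with 731 of all genes higher at the lowest. No setting run called a gene lower.

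Rhythm counts on the control diet were 0 of 24, and 1 with DESeq2 and with the epidermis marker level (0 to 1 without single libraries). On the restricted diet the count of 1 became 0 without replicate 1, 0 without replicate 2 and 0 with time as a factor (1 to 1 without single libraries). Over both diets the count of 1 became 3 with the replicate block, 2 with the ovary and gut marker levels and 3 with the epidermis marker level, and was 1 to 2 without single libraries. Without replicate 2, Cpr47Ee was called over both diets and Cpr73D was not (adjusted p = 0.0675). The diet by replicate count of 1 was 1 to 3 without single libraries, with 3 without control or restricted ZT 4 of replicate 1. The genes added over both diets were Cpr49Ag and Cpr62Bc with the replicate block and Cpr67B with the ovary and gut levels. With the epidermis level they were Cpr49Ag and Cpr76Bc. Control ZT 10 and restricted ZT 14 of replicate 1, the libraries with the most photoreceptor transcripts, held 60.6% of the TPM of Cpr47Ee. They held 68.4% of that of Cpr49Ag, which was detected in 10 libraries. Calls over all genes in these other rhythm and diet by replicate fits are not given, so the moves cannot be set against them.

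Signs turned for genes without a call and for Cpr47Ea. With the ovary and gut levels the log2 changes were -0.027 for Cpr49Ab, -0.18 for Cpr49Ae, -0.12 for Cpr47Ea and -0.12 for Cpr78E. With the epidermis level they were -0.047, -0.26, -0.037 and -0.20 for the same genes and -0.25 for Cpr65Au. Without replicate 1 they were -0.34 for Cpr65Au, -0.032 for Cpr73D and 0.86 for Cpr78E, without replicate 2 they were 0.52, 0.43 and -0.022, and the limma value was -0.043 for Cpr65Au. Cpr49Ac, at -0.19, ranged from -0.41 to 0.13 without single libraries, and turned to 0.13, 0.07 and 0.000434 without control ZT 16 of replicate 2, control ZT 18 of replicate 1 and restricted ZT 16 of replicate 1. The cause of these moves was not tested. With DESeq2 size factors, no ribosomal RNA or mitochondrial rows, or no low-count filter, the diet count stayed between 9 and 10. Depth limits the 23 untested genes, with at most 157 counts each.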
